A study of Mus musculus with 2 samples.

Results

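Mir335, Mir296, Mir298, Mir483 and Mir675 are microRNA (miRNA) genes of imprinted loci that lie outside the large imprinted miRNA clusters. They are 5 of the 2202 miRNA genes counted in the adrenal gland of male mice, and they were chosen by name, as the miRNA genes of the Mest, Nespas/Gnas, Igf2 and H19 loci. The animals were B6CASTF1/J males aged 2 months, the offspring of a cross between an inbred laboratory strain and castaneus mice. There is 1 group of 2 libraries, replicate 1 from animal 3 and replicate 2 from animal 4, with no treatment, other genotype or other tissue. The labels number the animals and the biological replicates separately but give both libraries 1 donor identifier, so n = 2 and every value between animals rest on the animal numbers. The data therefore give the level of reads of each gene in the gland and how far the animals differed, and no condition can be compared.

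An imprinted gene is expressed mainly or only from the chromosome inherited from 1 parent. Many imprinted genes act on growth before birth and are turned down in most tissues afterwards. A miRNA is cut from a hairpin in a longer transcript, and the mature strand pairs with target mRNAs through its seed, bases 2 to 8, and lowers their output. A miRNA inside an imprinted transcript can share the parental origin of that transcript. The counts here do not separate the maternal and paternal chromosome, so imprinting itself was not measured.

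The mature sequences of the 5 genes are shown because they decide which reads can be told apart, and because the seed sets what each product can pair with. All 5 genes matched entries of the RefSeq miRNA table (GRCm38.p6), with a 5p and a 3p product each, 10 mature sequences in all. Capitals mark the seed.

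miR-335-5p: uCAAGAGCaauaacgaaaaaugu
miR-335-3p: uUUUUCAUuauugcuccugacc
miR-296-5p: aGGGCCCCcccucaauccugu
miR-296-3p: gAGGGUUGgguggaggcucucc
miR-298-5p: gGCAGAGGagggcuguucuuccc
miR-298-3p: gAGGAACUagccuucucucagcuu
miR-483-5p: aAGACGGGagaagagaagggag
miR-483-3p: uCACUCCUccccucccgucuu
miR-675-5p: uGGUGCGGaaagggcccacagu
miR-675-3p: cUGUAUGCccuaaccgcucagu

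The 10 products carried 10 different seeds, so no pair of these imprinted miRNAs shares a seed. None of the other mature sequences among the 1738 in the RefSeq table carried any of the 10 seeds. No hairpin of the 5 genes shared a run of 18 bases with another of the 2202 miRNA genes, read in the same direction, whereas 51.2% of all miRNA genes shared such a run with another. Each mature sequence was found in the annotated transcripts of 1 gene, its own, except that both miR-675 products also lie in H19, the host RNA. Reads that aligned to several places were not counted at any gene, and these made up 39.4% (replicate 1) and 41.2% (replicate 2) of the aligned reads. The rest of the genome was not searched for copies. The files count reads per hairpin gene, so the values below do not separate the 5p and 3p products.

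The hairpins differed in base composition. The hairpin of Mir335 was 42.9% G and C, and 25.0% of all miRNA genes had a lower share. Those of Mir298 (53.7%), Mir483 (58.9%), Mir675 (63.1%) and Mir296 (63.3%) were all above the median of 50.8% over all miRNA genes. The gene with the most counts was thus the one with the lowest share of G and C.

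The genes sit in 3 imprinted domains and differ in whether and where they lie in a host gene (mm10 coordinates, GENCODE M21 annotation). Mir335 lies at chr6:30741299-30741396 on the plus strand, in an intron of Mest, a paternally expressed gene of growing mesoderm that encodes a hydrolase-like protein. Its hairpin begins 17752 bases after the start of Mest. Mir296 (chr2:174267047-174267125) and Mir298 (chr2:174267504-174267585) lie on the minus strand with a gap of 378 bases between them. In this annotation they overlap no other gene. The annotated end of Nespas, the paternally expressed RNA that runs antisense at the Gnas locus, is 13652 bases upstream of Mir298 and 14112 bases upstream of Mir296. Mir483 (chr7:142654924-142654996, minus strand) lies in an intron of Igf2, which encodes a paternally expressed growth factor, and also in an intron of the overlapping annotated gene Gm49394. Mir675 (chr7:142577064-142577147, minus strand) lies wholly within an exon of H19, a maternally expressed long non-coding RNA. The hairpins of Mir483 and Mir675 are 77776 bases apart.

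**Figure D1:**
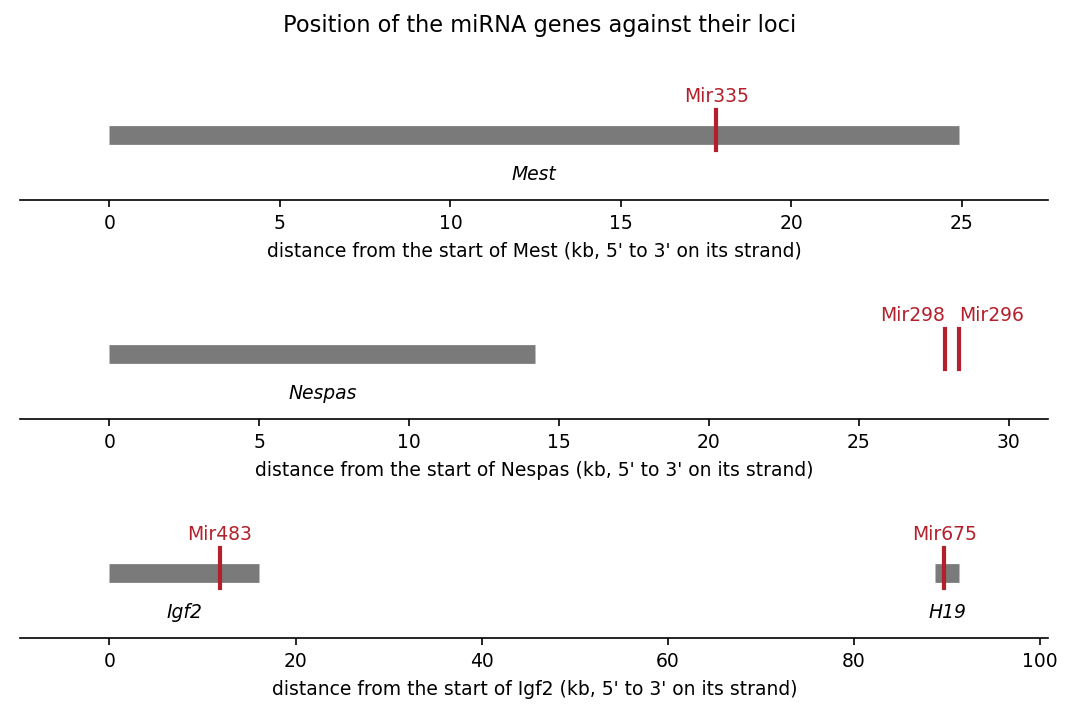
Position of the 5 miRNA genes (red marks) against the annotated span of Mest, Nespas, Igf2 and H19 (grey bars). Distances are in kb from the start of Mest, Nespas and Igf2, read 5' to 3' on the strand of that gene. Mir335, Mir483 and Mir675 lie inside their hosts, whereas Mir298 and Mir296 lie beyond the annotated end of Nespas.

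Replicate 1 had 5752428 counts at miRNA genes and replicate 2 had 3333149, 33.8% and 31.0% of the reads in the files. Levels are given as CPM, the reads on a gene's own strand divided by all such reads at miRNA genes, times 1000000. A count of 0 would allow up to 0.522 CPM in replicate 1, against 0.900 CPM in replicate 2. Detection required at least 2 CPM in each library, which 372 of 2202 genes reached. Among the markers of the tissue, Mir375 of neuroendocrine cells had 68780 CPM in replicate 1, against 46236 CPM in replicate 2, and Mir7b had 3666 CPM in replicate 1, against 4819 CPM in replicate 2. Of the markers of steroid-producing tissue, Mir132 had 1416 CPM in replicate 1, against 1449 CPM in replicate 2, and Mir202 had 8.69 CPM in replicate 1, against 13.2 CPM in replicate 2. Of the 5 muscle markers, Mir1a-1, Mir1a-2 and Mir133a-1 were at 1.22 CPM or less in both libraries. Reads aligning to several places were counted at no gene, so the low counts of Mir1a-1, Mir1a-2 and Mir133a-1 do not show absence. Mir208a had 9.39 CPM in replicate 1, against 0.900 CPM in replicate 2. Mir206 had 81.7 CPM in replicate 1, against 389 CPM in replicate 2. Among the markers examined, Mir451a of red blood cells differed most between the animals, with 21615 CPM in replicate 1, against 695 CPM in replicate 2.

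The imprinted miRNA genes ranged from the upper ranks of the adrenal profile to below the limit of detection. Mir335 was the highest, Mir298 and Mir296 followed, Mir483 was low, and Mir675 was not detected. So 4 of the 5 genes were detected, and this order was the same in both animals. Between neighbours in the order, the values of the higher gene in both animals lay above those of the lower gene in both animals, and the 95% Clopper-Pearson intervals did not overlap within either library. These intervals cover counting error only, and without molecular identifiers several reads can stem from 1 molecule. How evenly different miRNAs are turned into reads was not measured, so the order and folds between genes are those of reads. Together the 5 genes took 0.448% of all miRNA counts (interval 0.442 to 0.453) in replicate 1, against 0.390% (interval 0.383 to 0.397) in replicate 2. Ranks and shares here and below are among uniquely placed reads. Genes whose reads align to several places may stand too low in them, which would raise the ranks and shares of the 5 genes. In whole tissue, fewer cells of a type and less RNA per cell cannot be told apart.

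**Figure D2:**
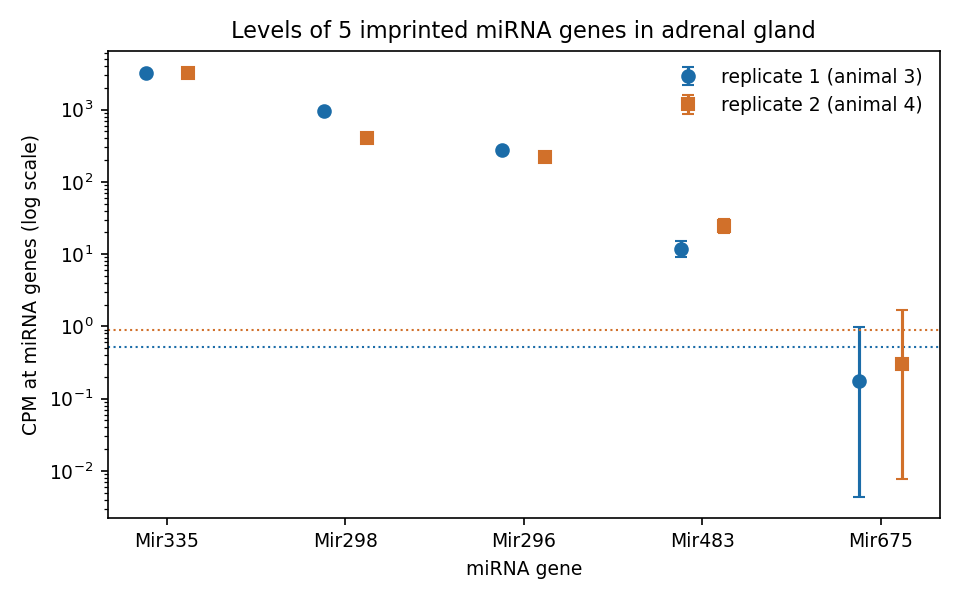
CPM at miRNA genes (log scale) of the 5 imprinted miRNA genes in replicate 1 (circles) and replicate 2 (squares), with 95% Clopper-Pearson intervals of the counting error. Dotted lines mark the level that a count of 0 allows in each library. By library totals Mir335 is level in both animals (3232 CPM in replicate 1, 3246 in replicate 2), Mir298 is spread most among the detected genes, and Mir675 lies below the dotted lines.

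Mir335 is known in human breast cancer as a miRNA that restrains metastasis. It had 18589 counts (3232 CPM, interval 3185 to 3278) in replicate 1 and 10818 counts (3246 CPM, interval 3185 to 3307) in replicate 2. By library totals the animals were level, with a mean of 3239 ± 9.95 CPM (SD, n = 2), and the gene took rank 42 in each library. With the TMM scaling used for the tests below, replicate 1 was 1.14-fold higher. Of the counts of the 5 genes together it made up 72.2% in replicate 1, against 83.3% in replicate 2. By mean level, the gene next above it was Mir130a (2526 CPM in replicate 1, 4045 in replicate 2) and the gene next below it was Mir433 (3314 CPM in replicate 1, 2814 in replicate 2), an imprinted miRNA gene between Dlk1 and Dio3. Both neighbours differed more between the animals than Mir335 did. The other miRNA genes within 500000 bases of Mir335, a window set by position after the files were seen, were Mir29a and Mir29b-1 on the opposite strand. Mir29a, 321263 bases away, had 5533 CPM in replicate 1, against 9475 CPM in replicate 2.

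Mir298 is known in mouse for lowering the output of the secretase gene Bace1. It had 5514 counts (959 CPM, interval 933 to 984) in replicate 1 and 1366 counts (410 CPM, interval 388 to 432) in replicate 2. Replicate 1 was the high library and replicate 2 the low one, and the spread of 684 ± 388 CPM (SD, n = 2) was wide. Its rank was 75 in replicate 1 and 114 in replicate 2. The genes next to it in mean level were Mir497 (430 CPM in replicate 1, 940 in replicate 2), which was high in the other library, and Mir1839 (1008 CPM in replicate 1, 354 in replicate 2).

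Mir296 is known from human endothelial cells, where it acts in the growth of blood vessels. It had 1572 counts (273 CPM, interval 260 to 287) in replicate 1 and 728 counts (218 CPM, interval 203 to 235) in replicate 2, a mean of 246 ± 38.8 CPM (SD, n = 2). Replicate 1 was again the higher library, by less than for Mir298. Its neighbours in level were Mir188 (199 CPM in replicate 1, 302 in replicate 2) and Mir467d (236 CPM in replicate 1, 253 in replicate 2), the highest gene of the imprinted cluster in Sfmbt2. The rank of Mir296 was 129 in replicate 1 and 149 in replicate 2.

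Mir483 is known in human adrenocortical carcinoma, where it is raised together with IGF2. In these adult glands it had 68 counts (11.8 CPM, interval 9.18 to 15.0) in replicate 1 and 81 counts (24.3 CPM, interval 19.3 to 30.2) in replicate 2. It was thus low in both animals, at 18.1 ± 8.82 CPM (SD, n = 2), and unlike the genes at the Gnas locus it was higher in replicate 2. Its rank was 287 in replicate 1 and 257 in replicate 2, and 26.6% of the detected genes had a lower mean level. Mir293 (13.2 CPM in replicate 1, 23.1 in replicate 2) and Mir190b (11.6 CPM in replicate 1, 24.0 in replicate 2) were next to it in level, and both were also the higher in replicate 2. Mir335 exceeded Mir483 273-fold in replicate 1 and 134-fold in replicate 2.

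Mir675 is known in mouse placenta, where its release from H19 restrains growth and lowers Igf1r. It had 1 count in each library, which is 0.174 CPM (interval 0.0044 to 0.969) in replicate 1, against 0.300 CPM (interval 0.0076 to 1.67) in replicate 2. Both values lie below what a count of 0 allows, so at this depth Mir675 could not be told from absent, and no fold between the animals is given. Replicate 1 also held 2 reads on the strand opposite to Mir675. In mean level 16 genes tied for the place next above it and 21 for the place next below, so no neighbour is named.

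**Figure D3:**
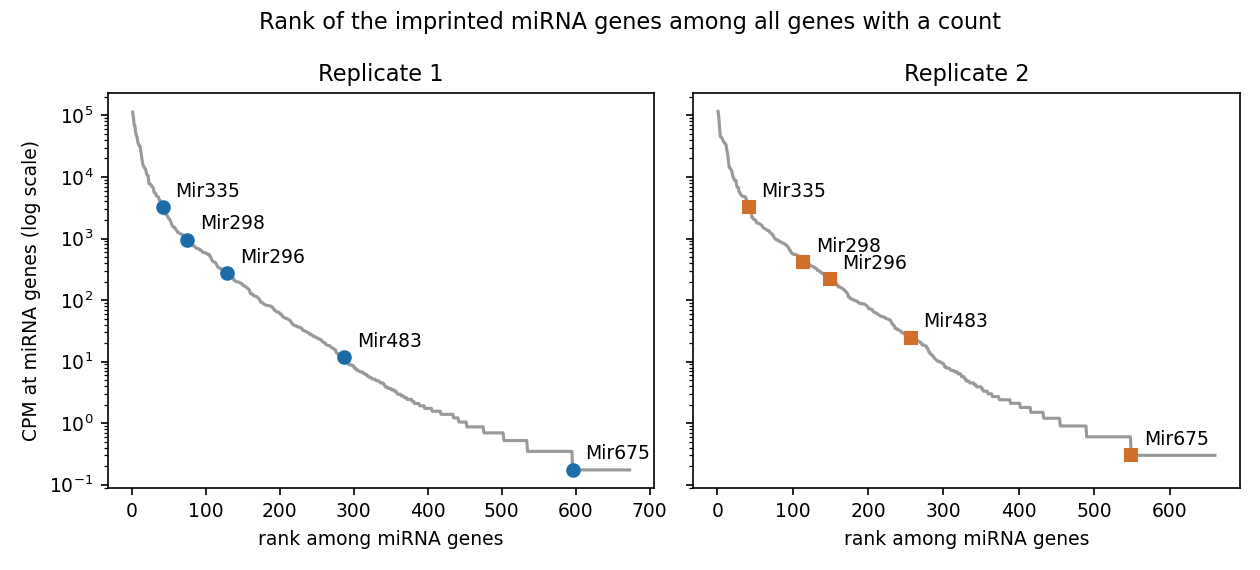
CPM (log scale) against rank for all miRNA genes with a count in replicate 1 (left) and replicate 2 (right), as grey lines, with the 5 imprinted genes marked. Mir335 holds rank 42 in both panels, and Mir298 holds rank 75 in replicate 1 and rank 114 in replicate 2.

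The libraries were compared gene by gene with an exact binomial test, two-sided, with TMM scaling and Benjamini-Hochberg adjustment over the 389 genes with 10 counts or more in mean. This test compares 2 libraries and not conditions. Of these genes 59.1% were called, 30.8% as higher in replicate 1 and 28.3% as lower. Mir675 was too low to be tested. All 4 tested members were called, 3 as higher in replicate 1 and 1 as lower. A call was thus common among all tested genes, and the members' count is read against that share.

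Mir298 differed most among them, with a log2 ratio of replicate 1 over replicate 2 of 1.42 (counting SE 0.04, adjusted p = 1.16e-277, exact binomial test), or 2.68-fold. Only 25 of the 389 tested genes had a larger ratio in either direction. Mir296 had a log2 ratio of 0.52 (SE 0.06), or 1.44-fold, and Mir335 of 0.19 (SE 0.02), or 1.14-fold. Mir483 was lower in replicate 1, with a log2 ratio of -0.84 (SE 0.24, adjusted p = 0.00085, exact binomial test). The call for Mir335 rested on the scaling, since TMM raises every log2 ratio by 0.20 over the value from library totals. Scaled by library totals Mir335 was level, with a log2 ratio of -0.0063 and an adjusted p of 0.770 in the exact binomial test, while the other 3 genes kept their calls. Over all genes 85 were then called higher in replicate 1 and 170 lower, against 120 and 110 with TMM.

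The exact test of edgeR, with a common dispersion (biological coefficient of variation 0.361) estimated from the differences between these same libraries, called 4 of the 389 genes. None of the 4 tested imprinted genes was among them, with an adjusted p of 1 for each, and the smallest unadjusted p was 0.0624 for Mir298. This test sets 1 library against 1 and takes its spread from the differences it tests, so a missing call says nothing about the spread between animals. Other markers moved between the libraries as well, with log2 ratios of 5.16 for Mir451a and 3.05 for Mir144 of red blood cells. Of the muscle markers, Mir206 had -2.05 and Mir208a had 3.37 (counting SE 0.80). Mir208a had 3 counts in replicate 2, the level that a count of 0 allows. The neuroendocrine genes went both ways, with 0.77 for Mir375 and -0.20 for Mir7b, and the hepatocyte gene Mir122 had -0.75. Their part in the differences of the imprinted genes was not tested.

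**Figure D4:**
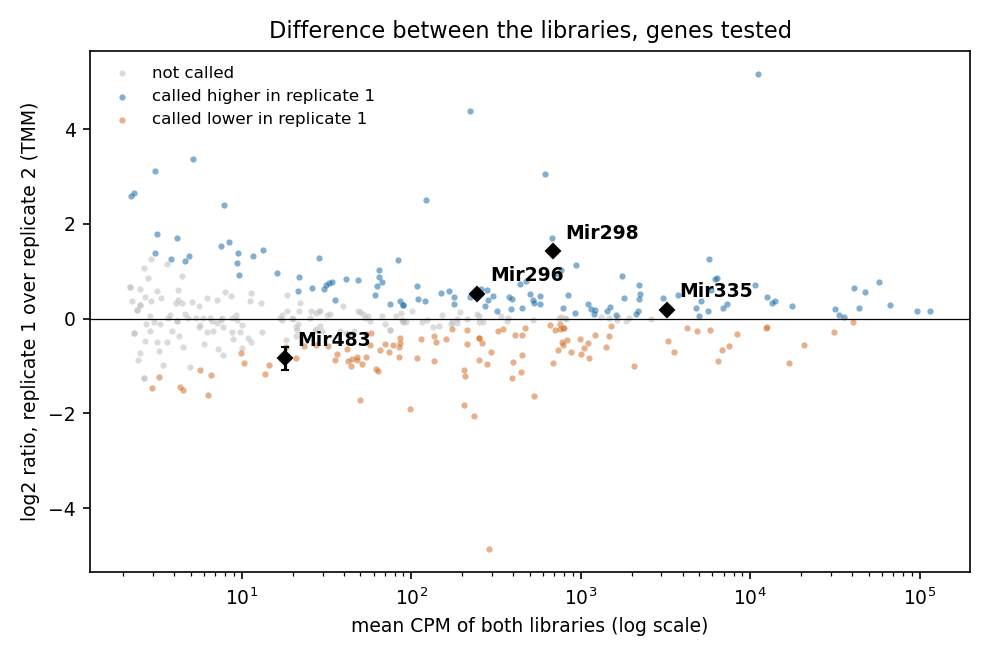
Log2 ratio of replicate 1 over replicate 2 after TMM scaling against mean CPM (log scale) for the 389 tested miRNA genes. Diamonds with bars of 1 counting SE mark Mir298 at 1.42, Mir296 at 0.52, Mir335 at 0.19 and Mir483 at -0.84, and the coloured points are genes called by the exact binomial test, blue for higher and orange for lower in replicate 1.

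Mir296 and Mir298 lie close together on 1 strand, and their ratio within a library needs no scaling between libraries. Their hairpins are shown to set the pair side by side, with the mature 5p and 3p products in capitals.

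Mir298: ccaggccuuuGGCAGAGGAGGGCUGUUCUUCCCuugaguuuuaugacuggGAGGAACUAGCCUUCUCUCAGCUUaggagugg
Mir296: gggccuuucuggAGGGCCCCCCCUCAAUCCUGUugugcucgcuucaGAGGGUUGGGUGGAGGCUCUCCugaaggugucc

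The counts of Mir298 exceeded those of Mir296 in both animals, 3.51-fold in replicate 1 and 1.88-fold in replicate 2. Mir298 took 77.8% of the 7086 counts of the pair in replicate 1 (interval 76.8 to 78.8) and 65.2% of the 2094 counts in replicate 2 (interval 63.2 to 67.3). This share was 12.6 percentage points higher in replicate 1, beyond counting error (Fisher's exact test, two-sided, p = 4.58e-30, adjusted over 2 pairs 9.16e-30). The test takes each read as independent, so its p does not measure the spread between animals. The neighbours kept their order in both animals, and the ratio of their counts differed between the libraries.

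**Figure D5:**
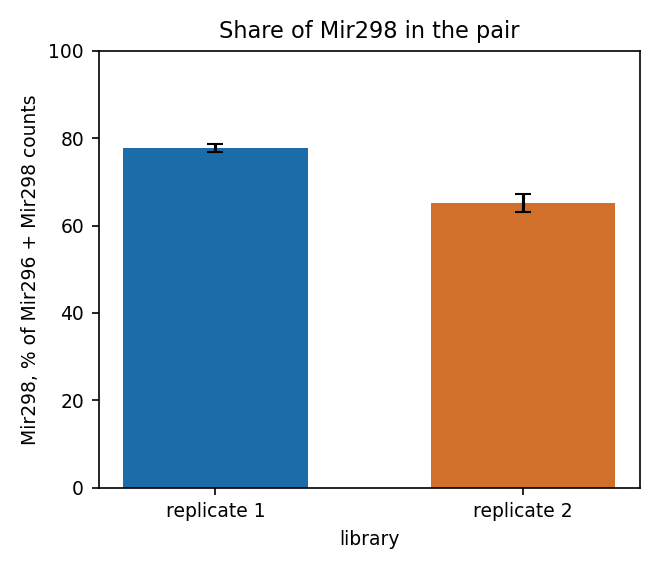
Share of Mir298 in the summed counts of Mir296 and Mir298, in percent, in replicate 1 and replicate 2, with 95% Clopper-Pearson intervals. The bars stand at 77.8% and 65.2%, and their intervals do not overlap.

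The pair of the Igf2 and H19 domain was set by Mir483 alone. Mir675 took 1.45% of the 69 counts of the pair in replicate 1 (interval 0.0367 to 7.81) and 1.22% of the 82 counts in replicate 2 (interval 0.0309 to 6.61). With 1 read of Mir675 in each library, a difference in this share was not detectable at this depth (Fisher's exact test, two-sided, p = 1, adjusted over 2 pairs 1). The upper bounds limit Mir675 to 7.81% of the pair in replicate 1 and 6.61% in replicate 2, so far as counting error goes.

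The large imprinted clusters of the same libraries give a scale for these levels. Between Dlk1 and Dio3, a region whose miRNAs are expressed from the maternal chromosome, 51 of 67 miRNA genes were detected, and all 67 together held 5.49% (replicate 1) and 5.60% (replicate 2) of the counts. By mean CPM Mir335 lay below 5 of them, Mir127, Mir379, Mir411, Mir541 and Mir382, and above all the others, though Mir433 was above it in replicate 1. Inside Sfmbt2, host of a paternally expressed cluster of placenta, 7 of 119 genes were detected. The 119 genes held 0.0495% (replicate 1) and 0.0562% (replicate 2) of the counts. Reads that aligned to several places were counted at no gene, so these values hold uniquely placed reads only. Sequence sharing within this list was not examined, so the low share does not show that the cluster was silent. By these counts Mir335 and Mir298 lay above Mir467d, the leading gene inside Sfmbt2, in both animals. Mir296 lay above Mir467d in replicate 1 and below it in replicate 2, so the order of these genes turned between the animals.

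Between the animals, the Dlk1 to Dio3 region had 13 genes called higher in replicate 1 and 22 lower among 51 tested, with a median log2 ratio of -0.25. The Sfmbt2 genes had 1 higher and 2 lower among 7 tested (median -0.32). Over all 389 tested genes, 120 were called higher and 110 lower with this TMM scaling. By library totals the balance over all genes was 85 higher and 170 lower, so a tilt of either list depends on the scaling. The 4 tested members had a median of 0.36 and values between -0.84 and 1.42, and the median over all tested genes was 0.01. The largest log2 ratio between Dlk1 and Dio3 was 0.83, of Mir379, so the value of Mir298 lay outside the range of that region, -1.64 to 0.83, and outside that of the Sfmbt2 genes, -0.93 to 0.38. Whether the imprinted groups differ from each other was not tested.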

How the data were processed

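Per the labels, RNA of under 30 nt from adrenal tissue was sequenced, 1 library for each of 2 animals. The authors deposited raw counts of reads at each miRNA gene (mm10, annotation M21, per the file headers). The aligner and the trimming are not given in the sources used. The column of the gene's own strand was used. The 4 leading rows that name no gene (66.2% of reads in replicate 1, 69.0% in replicate 2) stayed out of totals and tests.

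All 2202 identifiers matched GENCODE M21. Ratios used TMM scaling over genes with a mean of 10 counts or more and a pseudocount of 0.5, and calls an adjusted p under 0.05. With 1 group, edgeR's quasi-likelihood test could not be fitted. The exact binomial and Fisher tests were checked on simulated data with counting error only, so the check does not cover spread between animals. Members, lists and tests were chosen with earlier results of these data known. Named genes are the members, their neighbours in mean level, leading genes of the comparison lists and cell type markers. Genes near Mir335, and those between Dlk1 and Dio3 that lay above it in mean CPM, were added after their values were seen.

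Tools were edgeR 4.0.16 and DESeq2 1.42.0 in R 4.3.3, and SciPy 1.17.1, pandas 2.3.3, NumPy 2.4.6 and matplotlib 3.10.9 in Python 3.11.15.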

Additional observations from a re-analysis of the deposited data

How the results depend on the processing

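The exact binomial test called 230 of 389 genes between the libraries. It called 237 of 389 with DESeq2 size factors, 255 of 389 by total counts, 233 of 750 with no filter, 199 of 259 with a mean of 100 counts or more, and 217 of 362 without regard to strand. With a common dispersion edgeR's exact test called 4 genes and 0 of the 4 tested imprinted genes, 0 of these also at an unadjusted p under 0.05. The other settings called 3 or 4 of them. By total counts Mir335 changed sign (log2 ratio -0.0063) and lost its call, and Mir483 was left untested by the filter of 100 counts. The directions of Mir298, Mir296 and Mir483 held with DESeq2 size factors, by total counts and without regard to strand. These genes had no reads on the opposite strand, so the last setting changed only their scaling. For the filters and edgeR's test the main log2 ratios were reused, so their direction could not change.

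The share of Mir298 in its pair was 65.2% to 77.8% when 1 replicate was left out, and that of Mir675 was 1.22% to 1.45%. Counted without regard to strand, the mean share of Mir675 was 2.72%, against 1.33% on its own strand, through 2 opposite-strand reads in replicate 1. Leaving out a replicate put the mean CPM of Mir298 at 410 to 959, a spread that limits its level more than counting does. With all reads of the file as denominator, mean levels of the 5 genes were lower, with Mir335 at 1050 reads per 1000000. The calls between libraries need both libraries, so none exists without a replicate. No paired analysis was possible because the samples form 1 group. Depth limited Mir675, at 1 count in each library, and Mir483, at 68 and 81.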
